A study of Mus musculus with 44 samples.

Results

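The cytosolic ribosomal protein genes were followed across 43 Eµ-myc mouse lymphomas and 1 spleen. A gene was taken as a member when a probe set with a single gene symbol gave it a name opening with Rpl or Rps and a digit, or the name Rplp0, Rplp1, Rplp2 or Rpsa. Pseudogenes and the ribosomal S6 kinases were left out, and a gene with several probe sets was read from the one with the highest mean. The rule found 48 of the 12393 genes on the array: 20 proteins of the large subunit, 20 of the small subunit, the stalk genes Rplp0 and Rplp2, and 6 paralogs (Rpl3l, Rpl7l1, Rpl22l1, Rpl39l, Rps4l and Rps27l). A filter that asked for at least 1 array above the median of its set kept 8712 genes and 47 members, and Rpl39l did not pass. Rpl39 and Rpl3l passed through 1 array each and Rps4l through 3, and the other members lay above the median in all 44 arrays. A further 30 ribosomal protein symbols, Rpl3, Rpl5 and Rplp1 among them, stood only in probe sets that carry several symbols and were not analysed here.

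All samples carried the Eµ-myc transgene, in which the immunoglobulin heavy chain enhancer drives Myc in B lineage cells, and the spleen carried it too. Total RNA of each sample was hybridised to 1 Affymetrix mouse array. The labels give no treatment, age or sex, do not say whether each lymphoma came from a different animal or whether the spleen was free of disease, and do not tell which arrays were made from frozen tissue and which from pelleted cell suspensions. Every p-value therefore measures only the spread between these samples. The arrays are named by a D and the number in their titles, and their column medians fell into 2 sets separated by 0.399 on the log2 scale: 36 lymphomas with the lower numbers (set 1), and 7 lymphomas and the spleen, D168, with the higher numbers (set 2). Levels are log2 signals and are comparable only within a set. Differences and slopes were computed with the set in the model.

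The ribosome is built from ribosomal RNA and a single copy of most ribosomal proteins, so the cell makes these proteins in nearly equal amounts. Their mRNAs are among the most abundant of a growing cell and belong to the TOP class, which starts with a cytosine and a run of pyrimidines and is held back from translation when mTOR signalling is low. Myc raises ribosome production at many levels, including ribosomal RNA synthesis, nucleolar assembly factors and ribosomal protein genes, and a lower dosage of ribosomal proteins is known to delay lymphoma in Eµ-myc mice. When assembly is disturbed, free Rpl5 and Rpl11 bind the p53 inhibitor Mdm2.

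Promoters are shown first, since the fits below concern how these genes move with Myc. Sequences are from RefSeq on GRCm38.p6, run 5′ to 3′ on the strand of the gene from 100 bases before the annotated start to base 30 after it, and are printed for the members with the largest moderated t statistic of the slope on Myc, 4 positive and 2 negative. Capitals mark matches, on either strand, to the letters CCGGAAG, the core read by ETS family factors, to TATAAA, the TATA box, to CACGTG, the E-box read by Myc and Max, or to AAGATGGC, a site of the YY1 type.
Rps3a1: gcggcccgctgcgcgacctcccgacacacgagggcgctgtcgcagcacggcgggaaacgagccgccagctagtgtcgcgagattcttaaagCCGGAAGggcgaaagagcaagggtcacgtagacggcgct
Rpl11: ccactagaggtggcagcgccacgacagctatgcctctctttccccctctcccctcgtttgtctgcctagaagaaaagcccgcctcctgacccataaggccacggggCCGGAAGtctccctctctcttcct
Rps3: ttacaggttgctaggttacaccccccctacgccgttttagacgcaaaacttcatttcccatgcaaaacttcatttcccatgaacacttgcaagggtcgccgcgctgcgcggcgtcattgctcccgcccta
Rplp0: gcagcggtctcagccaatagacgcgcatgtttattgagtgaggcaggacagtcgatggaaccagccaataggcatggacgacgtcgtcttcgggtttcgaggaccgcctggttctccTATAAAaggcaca
Rpl27a: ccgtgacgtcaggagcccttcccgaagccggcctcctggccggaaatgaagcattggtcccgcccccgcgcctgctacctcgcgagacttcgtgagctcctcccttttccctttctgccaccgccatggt
Rpl22l1: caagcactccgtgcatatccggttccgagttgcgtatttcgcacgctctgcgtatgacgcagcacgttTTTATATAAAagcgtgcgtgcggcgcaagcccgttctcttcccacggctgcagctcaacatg
The regions are chr3:86142639-86142768 on the minus strand for Rps3a1, chr4:136053364-136053493 on the minus strand for Rpl11, chr7:99483680-99483809 on the minus strand for Rps3, chr5:115559367-115559496 on the plus strand for Rplp0, chr7:109519095-109519224 on the plus strand for Rpl27a and chr3:28805408-28805537 on the plus strand for Rpl22l1. The ETS core lay at bases -9 to -3 of Rps3a1 and at bases 7 to 13 of Rpl11. In Rpl27a it was outside the printed stretch, at -169 to -163. The paralog Rpl22l1 carried matches to the TATA box on both strands, which overlap, between -32 and -23. In Rplp0 the letters TATAAA lay at bases 18 to 23, after the annotated start. The longest pyrimidine run between -50 and 30 had 20 bases in Rpl27a (-4 to 16), 17 in Rpl11 (14 to 30), 10 in Rpl22l1 (2 to 11), and 7 or fewer in the other 3. Rps3 held none of the 4 motifs in the printed stretch.

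Over the whole 300-base promoters, 42 members had an entry and 6 had none (Rpl7, Rpl8, Rps14, Rps20, Rps29 and Rps4l). The ETS core was in 21 of 42 members (50%), against 9.12% of 27025 promoters. The E-box CACGTG was in 3, Rpl13a, Rpl14 and Rpl19 (7.14%, against 7.24% of all promoters). AAGATGGC was in 3 (7.14%, against 2.88%) and TATAAA in 5 (11.9%, against 14.2%). A pyrimidine run of at least 8 bases between -50 and 30 was found in 24 members (57.1%, against 30.2%), and a C at the annotated start in 15 (35.7%, against 16.2%). RefSeq starts can differ from the base where transcription begins, which bears on the last 2 shares. Of the 8 members that rose with Myc, described below, 5 held the ETS core and 2 the pyrimidine run.

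Most members varied little between lymphomas. After centring on the mean of the set, the SD over the 43 lymphomas had a median of 0.0953 log2 units over the 47 members and of 0.338 over all 8712 genes. An SD of at least 0.3 was reached by 8 members (17.0%) and by 60.4% of all genes. The narrow spread went with the signal: 33 members had a set 1 mean of 13 or more, near the top of the array's range, with SDs of 0.0454 to 0.145 and a median of 0.0793. The 15 other genes at that signal had a median SD of 0.133. The 14 members under 13 had a median SD of 0.339, the same as the 0.339 of all genes under 13. The part of the signal range in this difference was not tested. Without centring by set the median SD of the members was 0.308.

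**Figure D1:**
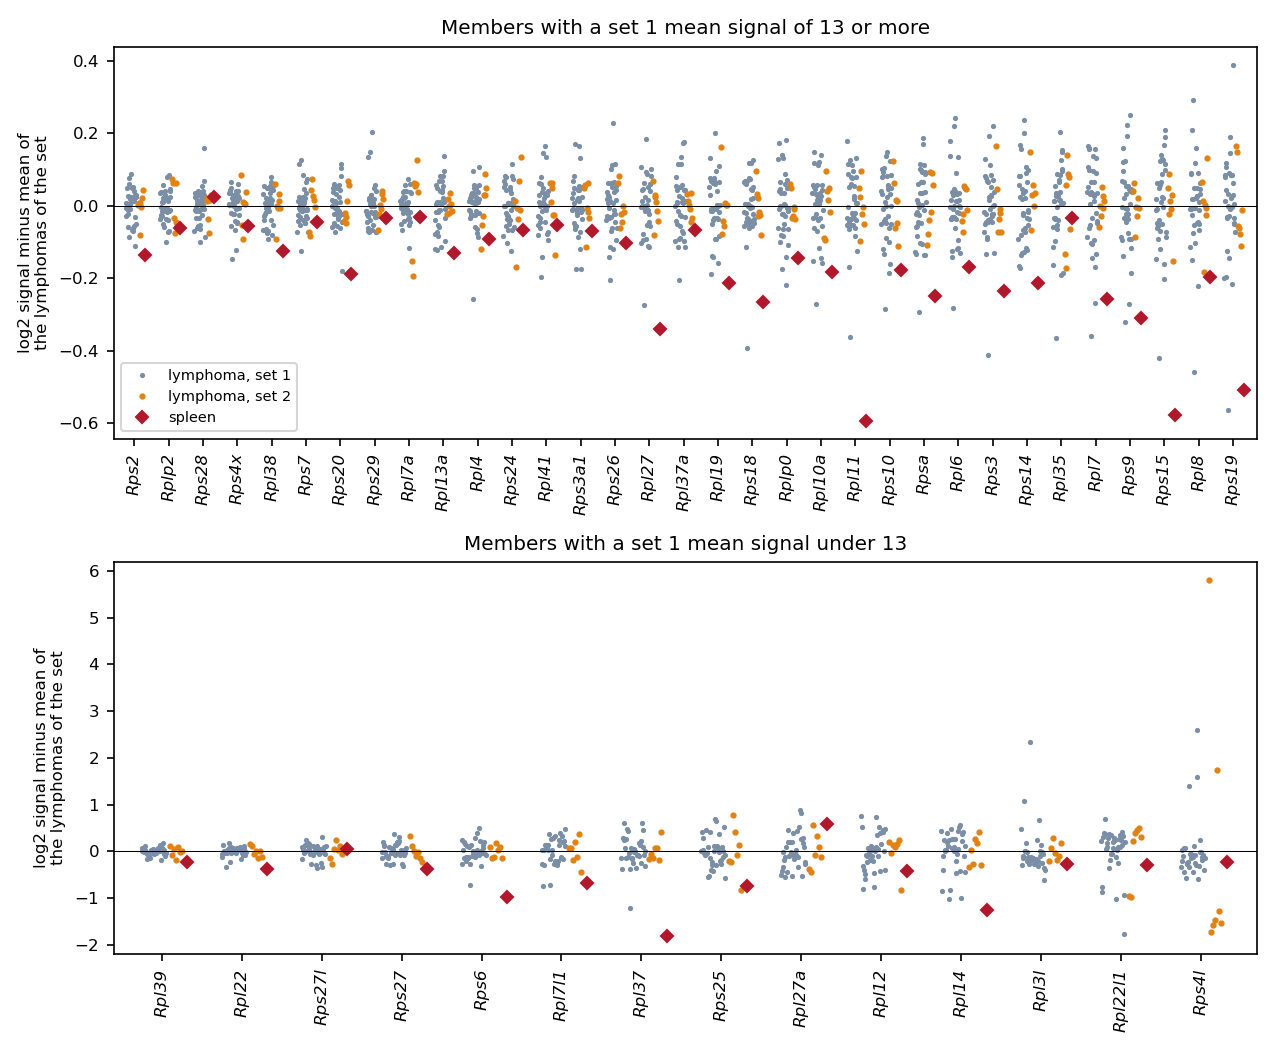
Each point is 1 array's log2 signal minus the mean of the lymphomas of its set, for the 33 members with a set 1 mean of 13 or more (upper panel) and the 14 members below it (lower panel, wider axis), ordered by SD. Set 1 lymphomas are gray, set 2 lymphomas orange and the spleen a red diamond; the lower panel holds the members whose spread reached 0.3, with Rps4l widest at an SD of 1.23.

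The steadiest members were Rps2, at the mRNA entry of the small subunit (SD 0.0454), the stalk protein Rplp2 (0.0458), Rps28 (0.0474) and the X-linked Rps4x (0.0486). Rps2 lay between 13.36 and 13.56 in set 1, with a median of 13.48, and between 14.21 and 14.33 in set 2. The widest were the paralogs Rps4l (1.23), Rpl22l1 (0.526) and Rpl3l (0.470), then Rpl14 (0.411), Rpl12 of the stalk base (0.396), and Rpl27a (0.363). Of these 6, 3 are paralogs, of which Rps4l and Rpl3l passed the filter only through the 3 arrays and 1 array where they were high. For a gene near the floor elsewhere such passing brings a wide SD, so the count says nothing of paralogs as a class. Their scaled median absolute deviations were 0.253 and 0.177.

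Rps4l, a paralog of the small subunit gene Rps4x, was near the floor in most arrays and high in a few. In set 1 it ranged from 3.47 to 6.66 with a median of 3.92. The arrays above 5 were D81 at 6.66, D82 at 5.64 and D59 at 5.46. In set 2 its lowest value was 4.14, its median 4.39 and its highest 11.66, in D135, with D133 next at 7.60 and the spleen at 5.64. In every other member the farthest lymphoma was nearer to its set mean: D135 stood at 5.80 from the set 2 mean. Rpl3l, the paralog of Rpl3 known from skeletal and heart muscle, ran from 4.02 to 6.96 in set 1 (median 4.48). Lymphoma D62 was the highest, at 2.34 from the set mean, and the next, D47, was at 5.70. In set 2 Rpl3l lay between 4.91 and 5.40 and the spleen, at 4.84, was just under that range.

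**Figure D2:**
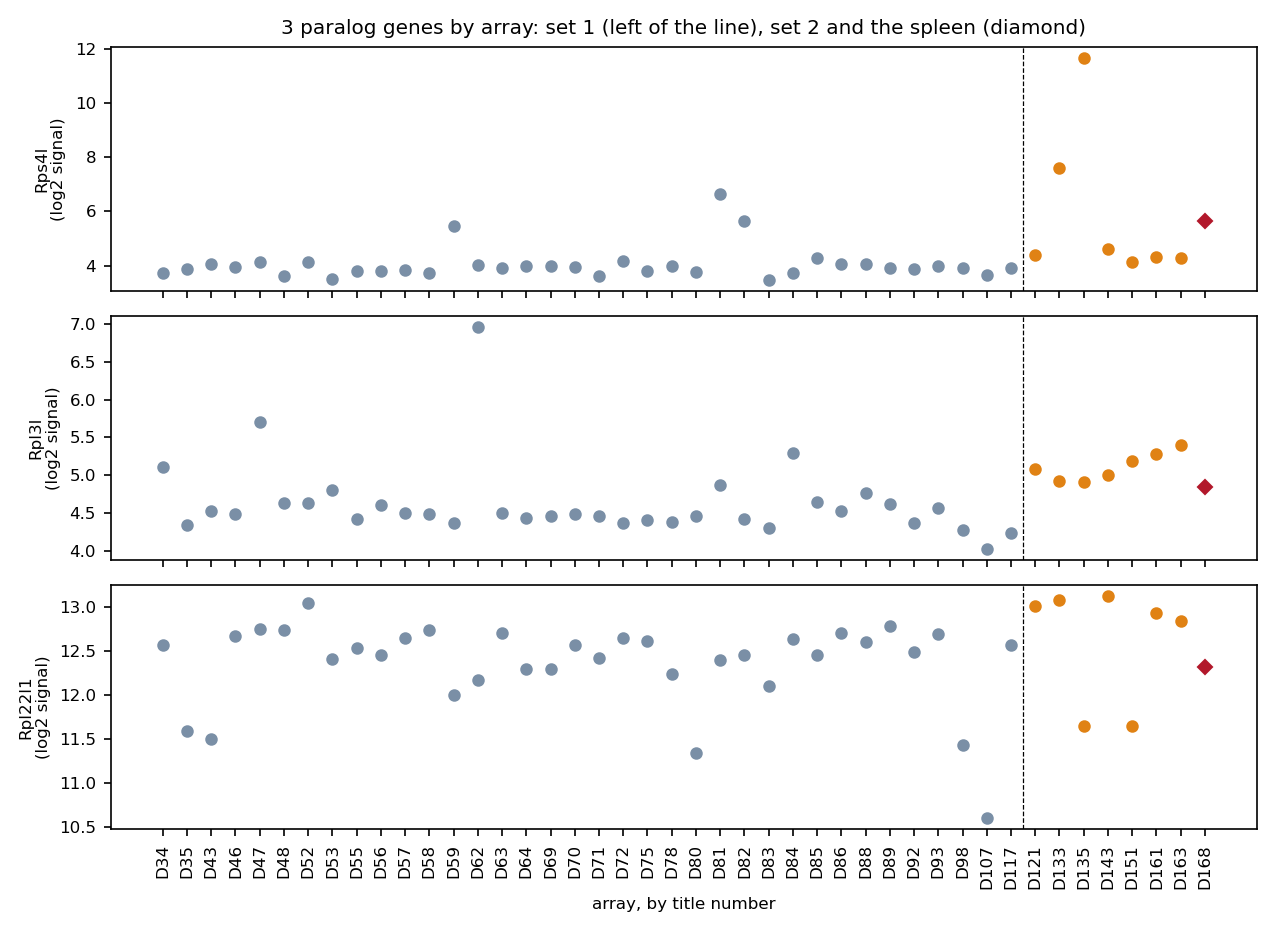
Log2 signals of the paralogs Rps4l, Rpl3l and Rpl22l1 in each array, in the order of the title numbers within each set, with set 1 left of the dashed line and the spleen as a diamond. Rps4l is high in D135 (11.66) and D133 (7.60), Rpl3l in D62 (6.96), and Rpl22l1 is lowest in D107 (10.60).

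Rpl7l1, a paralog with a part in large subunit assembly, ranged from 8.72 to 9.93 in set 1 and from 9.93 to 10.74 in set 2. Rps27l and its parent gene Rps27 had SDs of 0.156 and 0.170. Rpl39l, known for its high level in testis, stayed between 3.27 and 4.03 in set 1 and between 3.86 and 4.07 in set 2, and lay below the filter in every array.

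Members moved together only in part. The mean Pearson correlation over pairs of members, on set-centred values of 43 lymphomas, was 0.190, and the median was 0.203. It was 0.203 in set 1, 0.0488 in the 7 lymphomas of set 2 and 0.737 when the set was not taken out. Among the 33 members with a set 1 mean of 13 or more it was 0.283, and among the 14 below it was 0.0850. No such value was computed for other genes. The pairs share arrays, and members with near-identical sequence may share labelled RNA. Rps18 (mean correlation 0.389 with the other members), Rps3 (0.376), Rpl11 (0.367) and Rps19 (0.339) followed the rest most closely. Rpl27a (-0.0780), Rps28 (-0.0629), Rpl12 (-0.0513), Rps4l (-0.0190), Rps25 (-0.00914) and Rps27l (-0.00560) did so least.

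Lymphoma D59 stood apart and bears on several results below. It was the lowest lymphoma, set-centred, for 23 of 47 members, and the mean of all members stood at -0.23 from the set mean there, with 0.0869 as the highest value of set 1. The share of all genes with D59 lowest was not computed, and the column median of D59 was the highest of set 1 (6.46). The same lymphoma had the highest macrophage score (3.43) and the highest stroma and endothelium score (4.74) of set 1, whose medians were -0.32 and -0.42. Its pan B cell score was -1.03, in a set whose scores ran from -3.07 to 0.75. Without D59 the mean correlation between members was 0.106. In bulk RNA a smaller share of cells with a high level of a gene and less of its RNA in each cell cannot be told apart.

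The first comparison asked how the members followed Myc. The Myc level ran from 9.15 to 11.44 in set 1 (median 10.54) and from 9.90 to 11.78 in set 2 (median 11.22). With it 8 members rose and 2 fell (limma with Benjamini-Hochberg adjustment over 8711 genes, threshold 0.05), or 17.0% and 4.26% of the 47, against 26.4% of all genes rising and 16.9% falling. The members' share of rising genes was below that of all genes in this fit, and above it when each array was centred on its own median (51.1% against 33.8%). The median slope was 0.02 log2 units per log2 unit of Myc over the members and 0.03 over all genes, and 31 of 47 slopes were above 0.

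Among small subunit genes Rps3a1, Rps3 and Rps4x rose. Rps3a1, at the mRNA exit side of the small subunit, ran from 13.55 to 13.90 in set 1 and from 14.35 to 14.52 in set 2, and its slope was 0.07 ± 0.02 (SE, adjusted p = 0.00179). The whole range of Rps3a1 within a set was thus narrow. Rps3, at the mRNA entry and also a DNA repair protein, had a slope of 0.08 ± 0.03 (adjusted p = 0.0136), and Rps4x one of 0.03 ± 0.01 (adjusted p = 0.0491). Rps4x lost its call when any of 27 lymphomas was left out.

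Among large subunit genes Rpl11, Rpl6 and Rpl19 rose. Rpl11, which binds Mdm2 together with Rpl5, lay between 12.87, in D59, and 13.41 in set 1 with a median of 13.22, and its slope was 0.09 ± 0.02 (adjusted p = 0.00249). Rpl6 (0.07 ± 0.02, adjusted p = 0.0219) and Rpl19 (0.06 ± 0.02, adjusted p = 0.0294) followed, and Rpl19 lost its call without D43 or D71. Both stalk genes, whose proteins recruit elongation factors to the ribosome, rose: the slope was 0.06 ± 0.02 for Rplp0 and 0.04 ± 0.01 for Rplp2 (adjusted p = 0.0155 for each).

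The 2 members that fell were Rpl27a and Rpl22l1. Rpl27a ran from 9.26 to 10.69 in set 1 (median 9.75) and from 9.16 to 10.18 in set 2, and its slope was -0.25 ± 0.09 (adjusted p = 0.0194). Its other probe set had a slope of 0.10, and Rpl27a also rose with the 3′ minus 5′ difference of the control probe sets, a measure of RNA integrity (0.90 ± 0.18, adjusted p = 0.000866). Rpl22l1 had a slope of -0.32 ± 0.13 (adjusted p = 0.0454). The Rpl27a call was lost without D88 or D163, and the Rpl22l1 call without any of 14 lymphomas (D35, D43, D46, D52, D75, D80, D84, D88, D98, D107, D135, D151, D161 or D163).

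**Figure D3:**
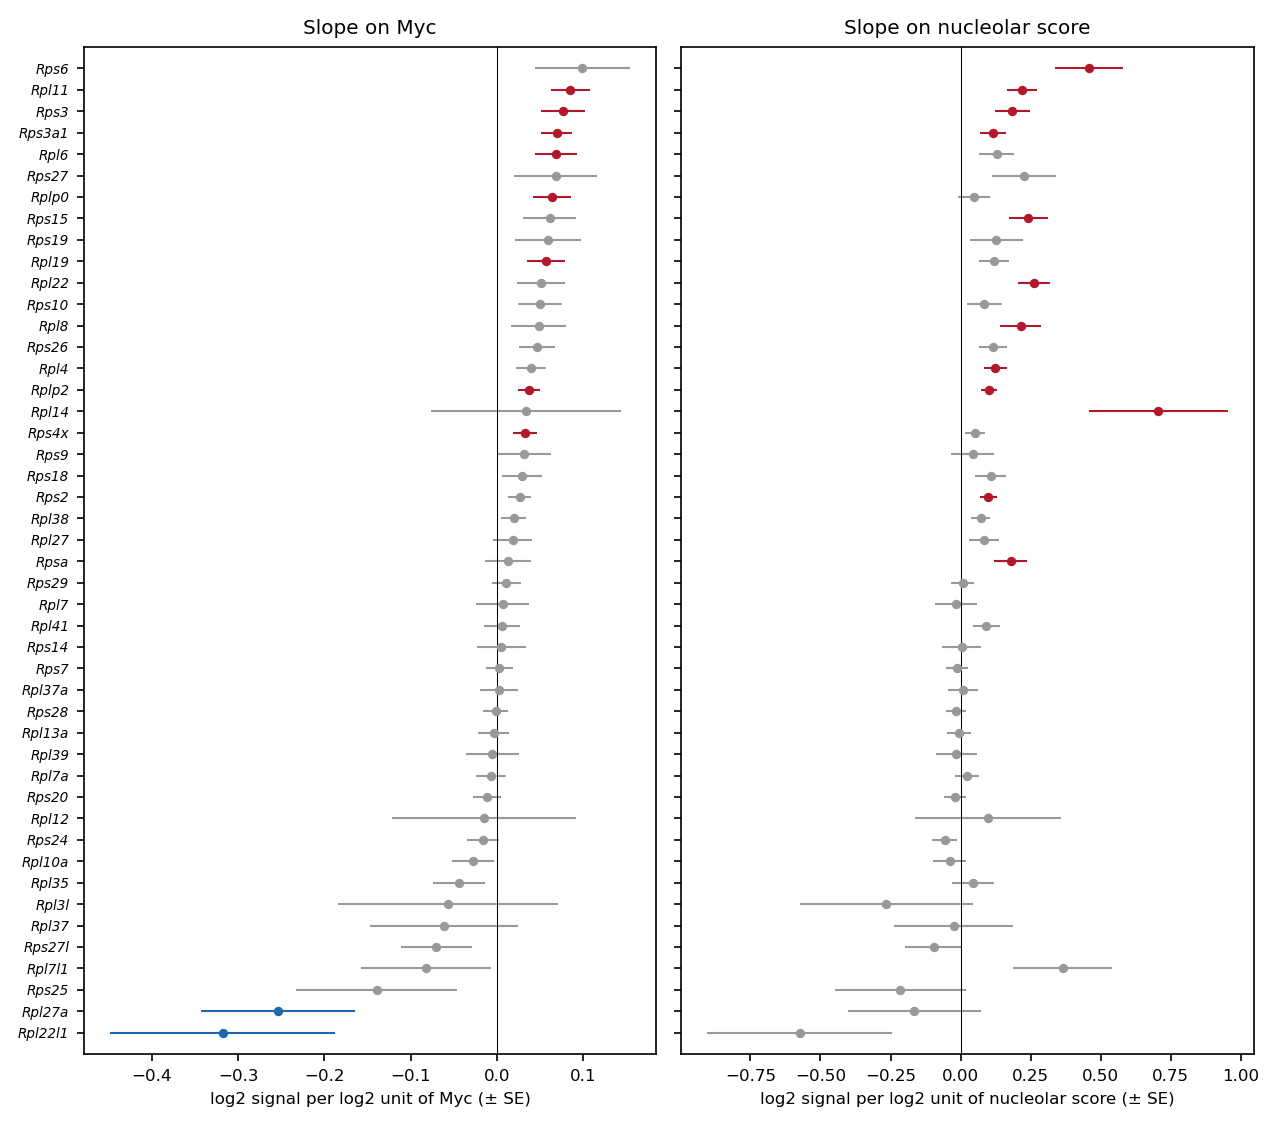
Slope of each member on Myc (left) and on the nucleolar score (right), with its SE as the bar, over 43 lymphomas with the set in the model; red members rose, blue members fell and grey members did not pass. Rps4l, with a slope of 0.36 ± 0.32 on Myc, is left out because its bar would set the axis.

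Markers of several cell types moved with Myc as well. Of the T cell markers 8 of 9 fell with Myc, of the macrophage markers 7 of 12, of the NK and cytotoxic cell markers 5 of 6 and of the plasma cell markers 8 of 9. Mature B cell markers fell in 5 of 8, while 0 of 10 neutrophil and 0 of 13 stroma and endothelium markers were called. Which cells carried these RNAs was not tested. The T cell score ran from -1.70 to 2.38 in set 1 and from -1.12 to 1.69 in set 2, and the macrophage score from -1.50 to 3.43 and from -1.04 to 2.57. With both scores in the model 1 member rose, Rps3a1 (0.10 ± 0.03, adjusted p = 0.0169), and none fell, while 6.34% of all genes were called. The slopes of Rplp0 (0.08 ± 0.03) and Rps3 (0.06 ± 0.04) changed less than their calls did. In set 1 alone 8 members rose and 0 fell, and in the 7 lymphomas of set 2 alone limma called 0 members and 0.563% of all genes. The test of the difference in slope between the sets called 0 of 47 members (limma, with 0.161% of genes less steep and 0% steeper in set 2). At an unadjusted p under 0.05 it gave 1 member, with no share of all genes counted at that threshold.

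Scaling changed the count. With each array centred on its own median 24 members rose and 0 fell (51.1% and 0%, against 33.8% and 14.6% of all genes), while the median slope of all genes moved from 0.03 to 0.08. With quantile normalization over all arrays 9 rose and 1 fell (19.1% and 2.13%, against 23.1% and 17.3%). Without the set in the model 36 rose and 1 fell (76.6% and 2.13%, against 47.2% and 6.56%). Whether the members' share of rising genes lay below or above that of all genes thus depended on the scaling and on the set.

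Genes that work on ribosomal proteins were read in the same fit. Of 24 nucleolar ribosome assembly genes 21 rose, with a median slope of 0.28. Of 8 dedicated chaperones and importers of ribosomal proteins 6 rose, with a median of 0.30: Pdcd2, which escorts Rps2, at 0.53 ± 0.07 (adjusted p = 3.08e-07), Tsr2, the escort of Rps26, at 0.38 ± 0.06, Bccip, the escort of Rpl23, at 0.36 ± 0.07, and Grwd1, the escort of Rpl3, at 0.30 ± 0.07. Of 9 genes of the mTOR branch that controls TOP mRNAs 5 rose, among them Larp1, which binds the TOP sequence (0.25 ± 0.05, adjusted p = 4.97e-05), Rheb, the activator of mTOR (0.27 ± 0.06), Eif4ebp1, an inhibitor of cap-dependent translation (0.36 ± 0.09), and Mtor (0.60 ± 0.20). Of 14 TOP mRNA genes that are not ribosomal proteins 2 rose, Pabpc1 (0.07 ± 0.02) and Naca (0.07 ± 0.03), and 1 fell, Tpt1 (-0.05 ± 0.01). The difference in slope between these lists and the members was not tested.

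The second comparison set the members against the nucleolar score, the set-centred mean of the assembly genes, which ran from -0.62 to 0.37 in set 1. With it 12 members rose and 0 fell, or 25.5% and 0%, against 31.9% and 20.5% of all genes. At an unadjusted p under 0.05 the same limma fit gave 17 rising and 0 falling, with no share of all genes counted at that threshold. Rpl22, which also binds viral and cellular RNA, had the strongest statistic (0.26 ± 0.06, adjusted p = 0.000203), then Rpl11 (0.22 ± 0.05, adjusted p = 0.000924) and Rps6, the target of the S6 kinases (0.46 ± 0.12, adjusted p = 0.00157). Rps6 ran from 9.73, in D59, to 10.94 in set 1 and from 11.14 to 11.46 in set 2. Rps15 (0.24 ± 0.07), Rplp2 (0.10 ± 0.03), Rps2 (0.10 ± 0.03), Rpl4 (0.12 ± 0.04) and Rpsa, the laminin receptor gene (0.18 ± 0.06), came next. Rpl8, Rps3, Rpl14 and Rps3a1 made up the 12. The Rps3a1 call was lost without any of 6 lymphomas (D43, D58, D59, D86, D92 or D163) and that of Rpl14 without D59 or D88. The mean of all probe sets lost the Rpl22 and Rps3a1 calls, and plain _at probe sets lost that of Rps15. With arrays centred on their medians 34 members rose (72.3%, against 41.8% of all genes), which turns the order of the shares round, and the median slope of all genes moved from 0.12 to 0.24.

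The nucleolar result leaned on D59. Without it 5 members rose (Rpl22, Rpl11, Rplp2, Rps2 and Rps6) and 2 fell, Rpl10a (-0.14 ± 0.05, adjusted p = 0.0309) and Rpl37 (-0.44 ± 0.18, adjusted p = 0.0375), named after their values were seen. These are 10.6% and 4.26% of the members, against 29.6% and 18.6% of all genes in that fit. All 12 macrophage markers and 9 of 13 stroma and endothelium markers fell with the nucleolar score. In the fit that also held the macrophage and T cell scores 1 member rose, none of the 12, and 11.2% of all genes were called.

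The third comparison concerned Cdkn2a, whose products p16Ink4a and p19Arf hold back the cell cycle and Mdm2. Cdkn2a ran from 3.97 to 11.46 in set 1 (median 7.59) and from 5.91 to 12.13 in set 2 (median 7.32). With it 3 members fell and 1 rose, or 6.38% and 2.13% of 47, against 1.48% and 3.31% of all genes.

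Rpl22l1, the paralog of Rpl22 that can take its place in the large subunit, ran from 10.60 to 13.05 in set 1 (median 12.51) and from 11.64 to 13.12 in set 2 (median 12.92), and the spleen was at 12.32. Its slope on Cdkn2a was -0.15 ± 0.03 log2 units per log2 unit (adjusted p = 0.000737). In set 1, 8 lymphomas had Cdkn2a above 10, and 5 of them had Rpl22l1 below 12: D107 (10.60), D80 (11.34), D98 (11.43), D43 (11.49) and D35 (11.59). Of the other 28, D59 was below 12, at 11.995. In set 2 the 2 lymphomas with Cdkn2a above 10, D151 (11.64) and D135 (11.65), were below 12 and the other 5, from 12.83 up, were not. Lymphomas D83, D71 and D62 had high Cdkn2a and Rpl22l1 of 12.10, 12.42 and 12.17, so the ranges overlapped in set 1. The bounds of 10 and 12 only describe these values and are no test. They are the same in both sets, though levels compare only within a set.

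The Rpl22l1 slope passed in all 15 alternative settings, with values of -0.25 to -0.12 and limma adjusted p of 1.27e-05 to 0.0385, and in each of 43 fits that left out 1 lymphoma, with adjusted p up to 0.00317. Rpl22l1 has 1 probe set, so the settings that chose probe sets otherwise left its own values unchanged. The slope was -0.13 ± 0.03 in set 1 alone (adjusted p = 0.0170) and -0.25 ± 0.02 in set 2 alone (adjusted p = 0.0385), where 0.023% of all genes were called in either direction. With the T cell and macrophage scores in the model it was -0.12 ± 0.03 (adjusted p = 0.00902). The parent gene Rpl22 had a slope on Cdkn2a of 0.0032 ± 0.0071 (adjusted p = 0.851). Its other probe set, of lower signal (set 1 mean 9.17), had a slope of -0.042 and a correlation of 0.11 with the one used.

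Rpl14, a large subunit protein, ran from 7.69 to 9.28 in set 1 (median 8.79) and from 9.30 to 10.05 in set 2, and its slope on Cdkn2a was -0.09 ± 0.02 (adjusted p = 0.0183). Lymphomas D59 and D88 were the lowest, at 7.69 and 7.71, without high Cdkn2a, and D35 and D62 followed at 7.87 and 7.89. The call was kept in each fit that left out 1 lymphoma and was lost with the T cell and macrophage scores (-0.06 ± 0.02, adjusted p = 0.107), with the 3′ minus 5′ difference of the control probe sets in the model (-0.08 ± 0.03, adjusted p = 0.0892), without the set in the model (-0.07 ± 0.03, adjusted p = 0.305), on leaving out the 2 lymphomas whose Cdkn2a lay farthest from its median (-0.09 ± 0.03, adjusted p = 0.0692), and in set 2 alone (-0.06 ± 0.04, adjusted p = 0.767). Rpl7a, of the large subunit, had a slope of -0.0128 ± 0.0038 (adjusted p = 0.0404). Its call was lost in 11 of 15 alternative settings and when any of 12 lymphomas was left out. Rplp0 rose (0.0204 ± 0.0050, adjusted p = 0.0126). This call was lost in 5 of 15 alternative settings, among them the one with the 3′ minus 5′ difference in the model. Without D59, 5 members fell, with Rpl10a (-0.0188 ± 0.0045) and Rpl35 (-0.0228 ± 0.0056) added (10.6%, against 1.65% of all genes), and without D83 the count was 5 as well.

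**Figure D4:**
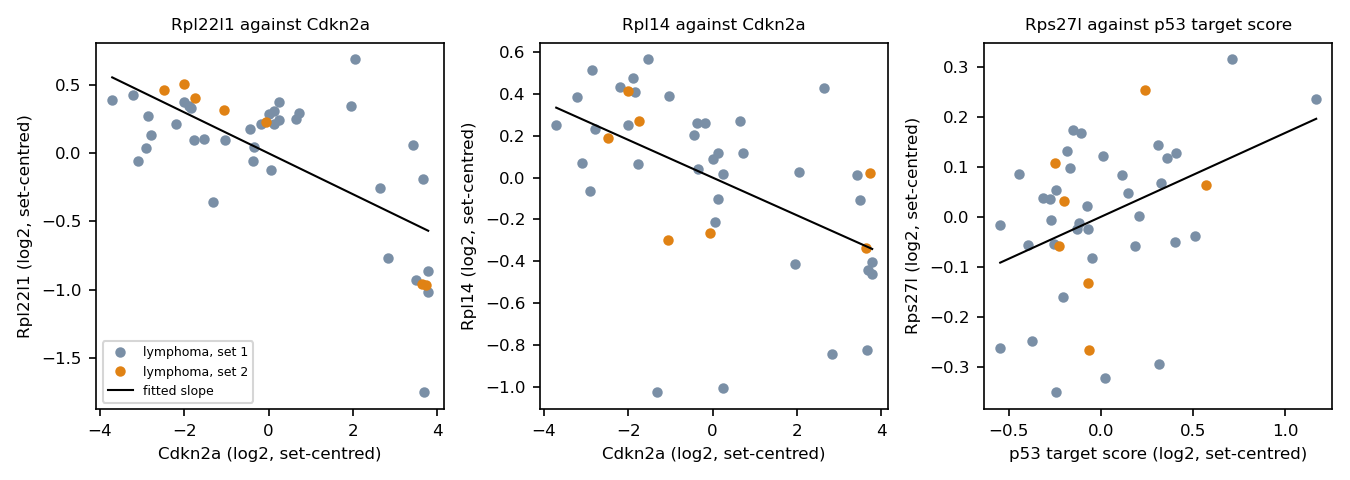
Set-centred log2 values of Rpl22l1 (left) and Rpl14 (middle) against Cdkn2a, and of Rps27l against the p53 target score (right), with each lymphoma as a point and the fitted slope as a line. The slope of Rpl22l1 is -0.15 ± 0.03, with D107 lowest at -1.76 from its set mean and high Cdkn2a.

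Rpl22 and Rpl22l1 were also set against each other, as 1 of 4 parent and paralog pairs chosen after values had been seen. Over 43 lymphomas r was -0.26 (permutation p = 0.0907, adjusted p = 0.358 over the 4 pairs) and rho -0.27 (permutation p = 0.0760, adjusted p = 0.272), and r was -0.26 without the 2 lymphomas farthest from the median. It was -0.11 in set 1 and -0.85 in set 2. The pairs Rps27 and Rps27l (r = -0.13), Rpl7 and Rpl7l1 (0.10) and Rps4x and Rps4l (0.20) did not pass either, with adjusted permutation p of 0.525, 0.526 and 0.358.

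The fourth comparison used the mean of p53 target genes, a list that does not hold Rps27l. With this score 1 member rose and 3 fell, or 2.13% and 6.38%, against 17.3% and 28% of all genes. Rps27l, itself known as a p53 target, rose (0.17 ± 0.06, adjusted p = 0.0285). It lay between 12.01 and 12.68 in set 1, highest in D88, and between 12.82 and 13.34 in set 2. Its parent Rps27 did not pass. Rpl22 (-0.11 ± 0.04), Rpl6 (-0.10 ± 0.04) and Rpl11 (-0.10 ± 0.04) fell with adjusted p of 0.0420, 0.0433 and 0.0481. Of 12 macrophage markers 10 rose with the p53 target score and of 9 T cell markers 7, and with both cell scores in the model none of the 4 calls was kept and 0.0115% of all genes were called. The Rps27l slope was then 0.28 ± 0.09 (adjusted p = 0.252), and its call was lost without D52, D62 or D88. The falling count was 0 without D43, D59, D63 or D163, 1 without D46, D53, D71 or D88, 6 without D107 and 7 without D80. These counts stand without a share of all genes and only describe how the calls shifted. Of the 43 fits that left out 1 lymphoma, 25 lost the Rpl11 call, 13 that of Rpl6 and 10 that of Rpl22. None of the 3 was kept with the mean of all probe sets.

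Along the B cell stage score, the mature minus the precursor B cell marker mean, 1 member rose and 1 fell, against 13.6% and 16.4% of all genes. Rpl37a, of the large subunit, had a slope of 0.0155 ± 0.0059 (adjusted p = 0.0427) and Rps29, of the small subunit, one of -0.0126 ± 0.0045 (adjusted p = 0.0289). The Rpl37a call was lost without any of 11 lymphomas (D46, D52, D56, D59, D62, D78, D81, D83, D86, D88 or D89), and that of Rps29 without D48 or D62. Without D59 0 rose and 2 fell, and without D48 2 rose. With the stage score 7 of 9 T cell, 7 of 12 macrophage, 7 of 9 plasma cell and 4 of 6 NK and cytotoxic markers rose, and 1 of the last fell. Neither member passed with the T cell and macrophage scores in the model (adjusted p = 0.0730 for Rpl37a and 0.116 for Rps29).

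The last comparison set the spleen, 1 array, against the lymphomas of its set, with the spread taken from the lymphomas. No member was higher and 10 were lower, or 0% and 21.3% of 47, against 7.6% and 5.8% of all genes. At an unadjusted p under 0.05 the same limma fit gave 0 higher and 18 lower. The share of all genes at that unadjusted threshold was not counted, so these 18 are not set against a background. The sign was below 0 for 44 of 47 members, against 60.2% of all genes, and the median difference was -0.20 against -0.16. The spleen lay below all 7 set 2 lymphomas for 30 members (63.8%, against 31% of genes) and above all 7 for 1 (Rpl27a, 2.13%, against 19.6%). For Rpl27a the margin was slight, 10.1803 against a highest lymphoma of 10.1768, and its other probe set differed by -0.28 from the set 2 mean.

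Rpl37, a small zinc-binding protein of the large subunit, was 8.81 in the spleen and between 10.44 and 11.04 in the set 2 lymphomas (median 10.56), a difference of -1.81 ± 0.34 (adjusted p = 0.000115). Rpl14 was 8.38 against 9.30 to 10.05 (-1.26 ± 0.43, adjusted p = 0.0452). Rpl11 was 13.48 against 13.98 to 14.17 (-0.59 ± 0.10, adjusted p = 3.56e-05). None of these ranges held the spleen. Rpl37 was read from its only probe set, of the x_at type, with a set 1 mean of 9.84. That of Rpl14 had a set 1 mean of 8.71 and that of Rpl11 one of 13.23. The part of the signal level in the size of the differences was not tested. The other large subunit genes that were lower were Rpl27 (-0.34 ± 0.09) and Rpl22 (-0.37 ± 0.11).

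In the small subunit Rps6 was 10.30 in the spleen against 11.14 to 11.46 (-0.97 ± 0.23, adjusted p = 0.00206), and Rps15, whose yeast counterpart is needed for export of the small subunit, was 13.45 against 13.87 to 14.11 (-0.58 ± 0.13, adjusted p = 0.00114). Rps19, the gene most often mutated in Diamond-Blackfan anaemia, was 13.61 against 14.01 to 14.28 (-0.51 ± 0.15, adjusted p = 0.0207). Rps20 (-0.19 ± 0.06) and Rps18 (-0.26 ± 0.09) were lower with adjusted p of 0.0452 and 0.0497. The probe set used for Rps6 had a set 1 mean of 10.45, below the 13 or more of most members. In its other probe set Rps15 differed by -0.17 from the set 2 mean, and its call was lost with plain _at probe sets. The stalk genes Rplp0 (-0.14 ± 0.09) and Rplp2 (-0.06 ± 0.05) did not pass. Of the paralogs none passed: Rpl7l1 was at -0.67 ± 0.30 (adjusted p = 0.130) and Rps27l at 0.06 ± 0.17.

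**Figure D5:**
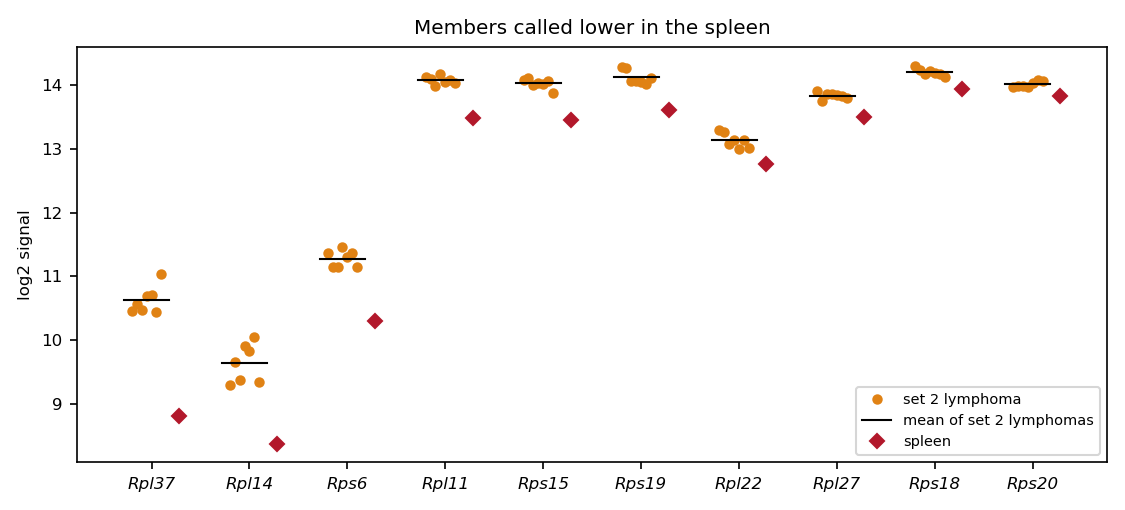
Log2 signals of the 10 members called lower in the spleen, with the 7 set 2 lymphomas as orange points, their mean as a bar and the spleen as a red diamond. The spleen lies under every set 2 lymphoma for each of the 10, with differences from the set mean of -1.81 for Rpl37 to -0.19 for Rps20.

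Markers of other cells were higher in the spleen. All 10 erythroid markers tested were higher there, with a median difference of 6.96, as were 8 of 10 neutrophil, 5 of 13 stroma and endothelium, 3 of 9 plasma cell and 2 of 12 macrophage markers. The erythroid score was 6.87 in the spleen and -0.19 to 0.29 in the set 2 lymphomas, and 0 of 8 pan B cell markers passed (median -1.36). The nucleolar score was -0.90 in the spleen, with 13 of 24 assembly genes lower, as were 4 of 14 other TOP mRNA genes (Eif3h, Eef1b2, Eif3e and Naca) and 2 of 8 chaperones and importers. With the T cell and macrophage scores in the model 5 members were lower (Rpl11, Rpl37, Rps15, Rps6 and Rpl27). The part of erythroid and neutrophil RNA in these differences was not tested. Without the set in the model 0 members were lower and 42 of 47 lay above 0, the median of all genes then standing at 0.42, and with arrays centred on their medians 19 were lower (40.4%, against 9.02% of all genes). Rps18 lost its call without any of 34 lymphomas, Rpl14 without D121, D133, D143 or D151, and Rps20 without D133, D143 or D161. Of 13 alternative settings for the spleen, 7 lost the Rps20 call and 1 changed its sign. For Rps18, 5 lost the call and 2 changed the sign.

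RNA integrity moved with some members. The 3′ minus 5′ difference of the Gapdh and actin controls ran from 0.101 to 1.18 in set 1, from 0.114 to 0.490 in set 2, and was 0.399 in the spleen. With it 4 members rose and 6 fell, or 8.51% and 12.8%, against 4.11% and 4.04% of all genes. Rps10 (-0.29 ± 0.04, adjusted p = 4.59e-06), Rpl7 (-0.33 ± 0.05), Rps9 (-0.29 ± 0.06), Rplp0 (-0.22 ± 0.04), Rps19 (-0.30 ± 0.08) and Rps3a1 (-0.15 ± 0.04) were lower where the difference was larger. Rpl27a, Rps28, Rpl12 and Rpsa were higher. With the difference in the model Rps3a1 kept its slope on Myc (0.06 ± 0.02, adjusted p = 0.00101).

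Probe sets of one gene often disagreed. The 48 members had 100 probe sets, and 23 had more than 1. Over the 52 probe sets not used, the correlation with the one used ran from -0.25 to 0.97 across 43 lymphomas, with a median of 0.63. The sign of the spleen difference was the same for 41 of 52 and that of the Myc slope for 28 of 52. Of the probe sets used, 10 are of the x_at type, which can bind RNA of other genes, and 1 of the s_at type. The part of pseudogenes and near-identical genes in those signals was not tested.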

How the data were processed

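The deposited values are on the log2 scale, 1 per probe set. Per the submitters' processing notes they come from RMA and affy, and versions are not given in the sources used here. Column medians fell into 2 sets, so the sets appear to have been normalized apart from each other, which the labels do not state. Of 22690 probe sets, 64 are controls, 20380 have 1 symbol, 691 have several and 1555 have none. All 48 members matched GRCm38.p6 RefSeq by Entrez identifier, with 48 symbols unchanged. A gene was read from its probe set with the highest mean and was kept when its value exceeded the median of its set in 1 array or more. Scores are means over listed genes, centred on the lymphomas of each set.

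Slopes and the spleen difference were fitted with limma 3.58.1 in R 4.3.3 (set as covariate, eBayes with trend, two-sided, Benjamini-Hochberg over all genes, threshold 0.05). The genes of a score were left out of its own fit. The spleen is 1 array and was assumed to vary as the lymphomas do. Paralog pairs had 100000 permutations. The pipeline was tested on simulated data. The number of arrays limits the precision. Members named were, per comparison, up to 8 in each direction with the largest statistic, the paralogs, stalk genes, Rpsa and Rpl11, and those with the highest or lowest SD or mean correlation, and of each pathway list up to 4 genes. The members and the 15 lists were chosen with earlier results of these data known. Alternatives concerned the set, scaling, filter, probe set, eBayes settings, array weights, the 3′ minus 5′ difference, the T cell and macrophage scores, and left-out lymphomas.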

Additional observations from a re-analysis of the deposited data

How the results depend on the processing

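The counts of members called were 8 rising and 2 falling with Myc, 12 and 0 with the nucleolar score, 1 and 1 with the B cell stage score, 1 and 3 with Cdkn2a, 1 and 3 with the p53 target score, and 0 higher and 10 lower in the spleen. Only counts that moved by more than 1.5 times follow, with the calls lost when the probe set was chosen otherwise. A count that stayed can rest on other members. Where no share of all genes stands beside a count, that count does not set the members apart from all genes. Without the set in the model 36 rose and 1 fell with Myc (76.6% rising, against 47.2% of all genes), and 44 rose with the nucleolar score (93.6%, against 69.1%). Under the same setting 0 and 0 moved with stage, 0 and 1 with Cdkn2a, 38 and 0 with the p53 target score, and 0 were lower in the spleen (against 0.452% of all genes). There the p53 target slopes of Rpl11 (0.32), Rpl22 (0.17) and Rpl6 (0.34) and the spleen differences of Rpl11 (0.12), Rpl22 (0.0907), Rpl27 (0.28), Rps15 (0.12), Rps18 (0.41), Rps19 (0.29) and Rps20 (0.30) changed sign. With arrays centred on their medians 24 rose and 0 fell with Myc (51.1% rising, against 33.8% of all genes), 34 rose with the nucleolar score (72.3%, against 41.8%), 0 with stage, 0 rose and 15 fell with the p53 target score, and 19 were lower in the spleen (40.4%, against 9.02%). With quantile normalization 1 fell with Myc, 0 with stage and 5 with the p53 target score. With the T cell and macrophage scores 1 rose and 0 fell with Myc, 1 rose with the nucleolar score, 4 rose and 0 fell with stage, 1 fell with Cdkn2a, 0 and 0 were called for the p53 target score, where Rpl11 (0.0268) and Rpl22 (0.0237) changed sign, and 5 were lower in the spleen. With the 3′ minus 5′ difference 1 fell with Myc, 2 rose and 2 fell with stage, 0 rose with Cdkn2a and 5 fell with the p53 target score. With array weights 1 fell with Myc, 0 rose with stage, 2 rose and 7 fell with Cdkn2a, 0 and 0 were called for the p53 target score, and 16 were lower in the spleen. With eBayes without trend 3 rose with Myc, 0 and 0 moved with stage, 0 rose with Cdkn2a and 0 fell with the p53 target score. With no filter on low values 1 fell with Myc, 1 with the nucleolar score, 0 rose with stage, and 2 rose and 0 fell with the p53 target score. With the mean of all probe sets 1 fell with Myc, and 11 of the 42 calls were lost. These were Rpl27a and Rps4x for Myc, Rpl22 and Rps3a1 for the nucleolar score, and Rpl37a and Rps29 for stage. Rpl11, Rpl22 and Rpl6 for the p53 target score and Rps18 and Rps20 in the spleen were lost too. With plain _at probe sets 2 fell with stage, and Rps18 in the spleen changed sign (0.0613). Calls lost there were Rps4x for Myc, Rps15 for the nucleolar score, Rpl11 and Rpl6 for the p53 target score, and Rps15 and Rps20 in the spleen.

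In set 1 alone 0 fell with Myc, 0 rose with stage and 1 fell with the p53 target score. In set 2 alone 0 and 0 were called for Myc, 0 rose with the nucleolar score, 0 and 0 were called for stage, 0 rose and 1 fell with Cdkn2a, and 0 and 0 were called for the p53 target score, with the sign changed for Rpl4 (-0.0312) and Rpsa (-0.0425) on the nucleolar score and Rpl22 (0.0057) on the p53 target score. Without the 2 lymphomas farthest from the median 5 rose and 0 fell with Myc, 2 rose and 1 fell with the nucleolar score, 0 and 0 were called for stage, 0 rose and 1 fell with Cdkn2a, and 0 and 0 were called for the p53 target score. Without D55, D59, D92 and D121, 5 rose and 2 fell with the nucleolar score, 0 rose and 2 fell with stage, and 0 fell with the p53 target score. Leaving out D59, chosen after seeing the data, gave 5 and 2 for the nucleolar score, 0 and 2 for stage, 5 falling with Cdkn2a and 0 falling with the p53 target score. Leaving out each lymphoma in turn, also added after seeing the data, gave lowest counts of 0 falling with Myc, 5 rising with the nucleolar score, 0 and 0 for stage and 0 and 0 for the p53 target score, and highest counts of 2 falling with the nucleolar score, 2 and 2 for stage, 5 falling with Cdkn2a and 7 falling with the p53 target score. The cause of these shifts was not tested.

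Of 42 member calls, 8 were kept with the T cell and macrophage scores, 37 with median centring and 33 with quantile normalization. The mean of all probe sets kept 31 and plain _at probe sets kept 35. No paired analysis was possible because no 2 groups share replicate numbers.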
